A study of Mus musculus with 15 samples.

Results

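The cholesterol synthesis pathway and its SREBP control were followed as 26 mouse genes, taken as the rows of the deposited gene table that carry their symbols. These 26 rows stood among 55341 gene symbols, and all 26 passed the filter on low counts that left 13085 genes for testing. They comprise 18 enzymes of the route to cholesterol, 5 genes of SREBP control (Insig1, Insig2, Srebf1, Srebf2 and Scap) and 3 genes that move or store sterols (Stard4, Abca1 and Soat1). RNA-seq of polyadenylated RNA was made from 6DT1, an established line of mammary tumour cells from FVB/N1 mice. Both a CLIC4 knockout and wild-type cells were sequenced, untreated or after 24 h in 1 µM hydrogen peroxide (H2O2). CLIC4 is a chloride intracellular channel protein. The groups were knockout cells given H2O2 (3 libraries), untreated knockout cells (4), wild-type cells given H2O2 (4) and untreated wild-type cells (4). The number of knockout clones and whether libraries came from separate cultures are not given in the sources used here, so the p-values measure the spread between these libraries, which may be technical, and a difference between genotypes cannot be told apart from a difference between cell clones.

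Cells build cholesterol from acetyl-CoA. The mevalonate arm makes isoprenoid diphosphates, squalene synthase and the next enzymes fold these into lanosterol, and a last set of enzymes trims lanosterol to cholesterol. SREBP transcription factors turn these genes on: when membrane sterol is low, the escort protein SCAP carries SREBP from the endoplasmic reticulum to the Golgi for cleavage, and when sterol is plentiful INSIG proteins hold the complex back. SREBP-2, from Srebf2, is best known for the cholesterol genes and SREBP-1, from Srebf1, for fatty acid genes. Because INSIG1 is itself an SREBP target, its transcript is often read together with those of the enzymes.

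Library totals ran from 12306140 to 16026276 counts. Clic4 lay between 64.2 and 75.9 CPM (counts normalised to library size) in the 7 knockout libraries, against 313 to 327 CPM in the 8 wild-type libraries, so the transcript was lower in every knockout library but not absent. Of the epithelial markers, Krt8 (group means 662 ± 23 CPM in knockout cells with H2O2, 649.5 ± 19.4 in untreated knockout, 631 ± 16.3 in wild type with H2O2 and 646 ± 25.6 in untreated wild type) was abundant, whereas Epcam, Cdh1, Krt7 and Cldn7 were at or near 0 in all groups. Other markers differed between the genotypes in untreated cells: Krt18 had 153 ± 4.89 CPM in knockout and 334 ± 1.65 CPM in wild type (log2 -1.12), Krt19 156 ± 6.23 CPM in knockout and 54.2 ± 4.09 CPM in wild type (log2 1.52), and Erbb3 1.39 ± 0.409 CPM in knockout and 2.87 ± 0.489 CPM in wild type (log2 -1.03). The fibroblast marker Pdgfra had 11 ± 1.3 CPM in knockout and 19.5 ± 1.43 CPM in wild type (log2 -0.83), and the endothelial marker Cdh5 1.66 ± 0.431 CPM in knockout and 0.71 ± 0.0565 CPM in wild type (log2 1.21). The endothelial markers Kdr (0.09 CPM in knockout and 0.304 CPM in wild type) and Pecam1 (0.171 and 0.654 CPM) had lower means in untreated knockout cells. Both were too low to be tested, and the untreated groups overlapped for both. Pecam1 ran from 0 to 2.36 CPM in untreated wild type, so its mean there does not show a difference between genotypes. With H2O2 the Pecam1 mean was higher in knockout cells (0.285 CPM, against 0.0497 CPM in wild type), without overlap. The Kdr mean was again lower in knockout cells with H2O2. Of the other fibroblast markers, Col1a1 was also lower in knockout cells (log2 -0.92), while Dcn and Col3a1 had higher means, near 0. Of the markers named so far, Krt18, Krt19, Erbb3, Pdgfra, Col1a1 and Cdh5 passed the test in untreated cells. The part of these markers in the results was not tested. Wild-type untreated replicate 9 stood apart: it held S100a9 (50.6 CPM), S100a8 (29.4 CPM), Lyz2 (19.4 CPM) and Ptprc (4.52 CPM), while S100a9 was at 0 in every other library. Of the 13 immune and blood markers, 6 were at 0 in knockout cells with H2O2, 7 in untreated knockout cells, 7 in wild type with H2O2 and 1 in untreated wild type. The genotype field of replicate 9 reads knockout, but its title, description and source name wild type, by which it was grouped, and its Clic4 level lay in the wild-type range. The summed level of the immune cell list was 267 to 280.1 CPM in knockout cells with H2O2, 271 to 307 CPM in untreated knockout cells, 399.7 to 424 CPM in wild type with H2O2 and 389.6 to 491 CPM in untreated wild type. Most of it was Cd68, which edgeR's quasi-likelihood test called lower in untreated knockout cells (log2 -0.47, adjusted p = 8.49e-11). With H2O2 Cd68 was also called lower (log2 -0.58, adjusted p = 9.06e-12). S100a8 was called lower in untreated knockout cells, with replicate 9 included (log2 -2.82, adjusted p = 0.0131), and was not called with H2O2 (adjusted p = 0.32). The part of the immune markers in the results was not tested. Untreated knockout replicate 4 stood apart within the pathway, as given below, and also over all tested genes. A chi-square of counts per degree of freedom, larger where 2 libraries differ more, was taken for pairs within a group. It was 7.15, 6.58 and 8.13 for replicate 4 against replicates 1, 2 and 3. The other pairs of untreated knockout libraries had 4.08, 3.62 and 6.06. Results that leaving out replicates 4 and 9 moved most are given with and without them.

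Levels per unit length, in RPKM as the authors deposited them, placed Insig1 highest of the 26 genes in every group, at 57.8 ± 0.223 in knockout cells with H2O2, 65.7 ± 6.92 in untreated knockout cells, 72.5 ± 4.75 in wild-type cells with H2O2 and 68.8 ± 3.75 in untreated wild-type cells (SD, n = 3, 4, 4 and 4). Tm7sf2, a sterol reductase, was lowest throughout, at 1.25 ± 0.347 RPKM in untreated knockout cells and 1.97 ± 0.256 RPKM in untreated wild-type cells. The place of Insig1 rests on the length assigned to each gene. In untreated knockout cells it averaged 50.2 ± 5.12 CPM, against 414 ± 11.4 CPM for Soat1. After Insig1, the order of levels per unit length differed between the genotypes. In untreated knockout cells Insig2 (45.9 ± 1.06 RPKM), Soat1 (41 ± 1.28 RPKM), Fdps (38.9 ± 4.32 RPKM) and Ebp (33.2 ± 1.51 RPKM) followed, and the SDs of neighbouring Soat1 and Fdps overlapped. In untreated wild-type cells the next were Ebp (57.9 ± 1.98 RPKM), Fdps (55.8 ± 2.7 RPKM), Insig2 (51 ± 1.42 RPKM) and Soat1 (33.5 ± 0.77 RPKM), with Ebp and Fdps within their spread of each other.

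**Figure D1:**
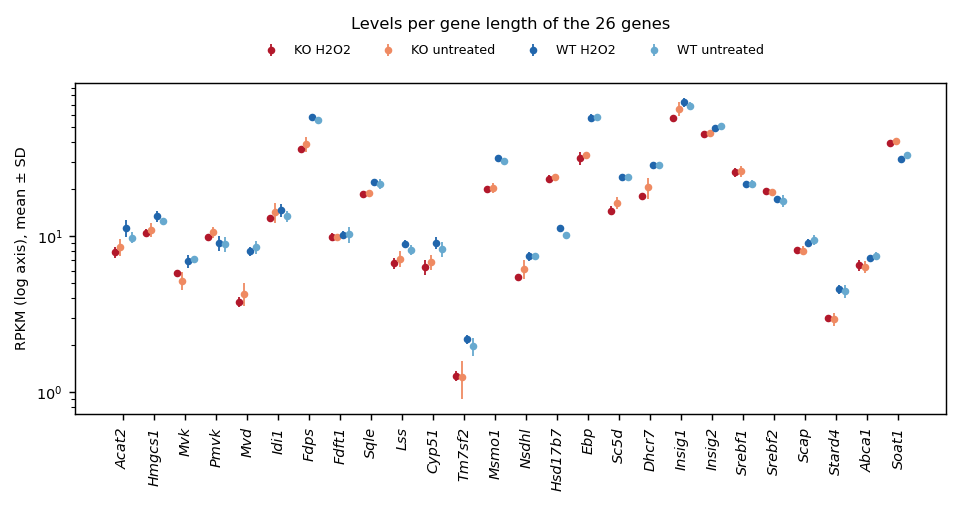
RPKM of the 26 genes on a log axis, with points at the mean of each of the 4 groups and bars of 1 SD. Insig1 sat highest and Tm7sf2 lowest in every group, and Hsd17b7 was the enzyme whose knockout points lay furthest above its wild-type points.

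SREBP acts at promoters through sterol regulatory elements, commonly beside a CCAAT box bound by NF-Y, and can also bind the E-box CACGTG. RefSeq promoter windows (GRCm38.p6, from 250 bases before to 50 after the start) were found for 22 of the 26 genes. A sterol regulatory element written TCACNCCAC, on either strand, lay in the windows of 1 of these 22 genes (4.55%), against 1.44% of all genes with a window. The CCAAT box lay in 19 of 22 (86.4%), against 41.1% of all genes and 43.4% of tested genes, and the E-box in 6 of 22 (27.3%), against 8.09% and 12%. These are matches of letters, described without a test, and no match in the windows printed here overlaps another. The 5 windows below contrast the gene with the element (Hmgcs1) and enzymes that were much lower in knockout cells (Mvd and Ebp). They also hold the enzyme that was called higher both without and with H2O2 (Hsd17b7), and the feedback gene (Insig1). Capitals mark a CCAAT box, the E-box or the sterol regulatory element, on either strand, and each sequence runs 5′ to 3′ along its gene.
Hmgcs1 (chr13:119690101-119690400, plus strand): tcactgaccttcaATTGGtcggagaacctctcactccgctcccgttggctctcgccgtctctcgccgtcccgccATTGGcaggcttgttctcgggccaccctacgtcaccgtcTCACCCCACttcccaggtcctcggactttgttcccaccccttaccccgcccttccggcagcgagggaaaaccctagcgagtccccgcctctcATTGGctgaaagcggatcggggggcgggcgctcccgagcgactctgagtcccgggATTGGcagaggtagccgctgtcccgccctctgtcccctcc
Mvd (chr8:122443373-122443672, minus strand): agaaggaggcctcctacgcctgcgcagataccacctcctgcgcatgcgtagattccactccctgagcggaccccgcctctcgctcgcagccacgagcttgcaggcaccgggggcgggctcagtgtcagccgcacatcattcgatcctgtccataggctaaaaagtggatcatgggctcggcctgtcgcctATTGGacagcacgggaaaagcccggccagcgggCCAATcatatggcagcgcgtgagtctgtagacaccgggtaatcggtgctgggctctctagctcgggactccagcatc
Ebp (chrX:8193463-8193762, minus strand): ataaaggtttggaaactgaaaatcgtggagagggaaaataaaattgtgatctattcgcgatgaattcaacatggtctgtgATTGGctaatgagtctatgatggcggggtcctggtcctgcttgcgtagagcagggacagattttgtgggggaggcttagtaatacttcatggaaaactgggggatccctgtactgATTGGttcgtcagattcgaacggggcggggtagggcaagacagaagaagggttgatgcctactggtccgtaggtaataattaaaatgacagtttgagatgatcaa
Hsd17b7 (chr1:169969156-169969455, minus strand): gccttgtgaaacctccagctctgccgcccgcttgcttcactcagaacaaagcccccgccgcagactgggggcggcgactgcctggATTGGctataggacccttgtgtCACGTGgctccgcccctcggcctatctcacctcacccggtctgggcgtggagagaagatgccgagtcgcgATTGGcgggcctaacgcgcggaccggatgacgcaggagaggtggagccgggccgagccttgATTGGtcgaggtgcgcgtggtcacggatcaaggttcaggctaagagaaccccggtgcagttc
Insig1 (chr5:28071162-28071461, plus strand): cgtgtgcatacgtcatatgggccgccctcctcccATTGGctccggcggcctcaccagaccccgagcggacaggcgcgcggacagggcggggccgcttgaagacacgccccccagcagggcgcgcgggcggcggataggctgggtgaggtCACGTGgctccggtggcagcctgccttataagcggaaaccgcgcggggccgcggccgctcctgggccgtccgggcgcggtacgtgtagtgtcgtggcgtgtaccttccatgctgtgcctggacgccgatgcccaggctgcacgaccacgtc
Counting from the transcript start, the Hmgcs1 element began at -137 and its CCAAT boxes at -237, -176, -45 and 10. Mvd had CCAAT at -60 and -27 and Ebp at -170 and -55, with neither other motif. Hsd17b7 had CCAAT boxes at -165, -73 and -12 and an E-box at -143. Insig1 had a CCAAT box at -216 and an E-box at -101. Enzymes that differed in opposite directions between genotypes both held CCAAT in this window.

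The first comparison asked how the pathway differed between knockout and wild-type cells, once without and once with H2O2. Most synthesis enzymes were lower in knockout cells, led by Mvd and Ebp, while Hsd17b7, Srebf1, Srebf2 and Soat1 were higher. In untreated cells 21 of the 26 genes passed the test (5 higher and 16 lower in knockout cells), edgeR's quasi-likelihood test with Benjamini-Hochberg adjustment at 0.05. Of all 13085 tested genes, 66.8% passed it, 33.9% higher and 32.9% lower. With H2O2, 22 of 26 passed (4 higher and 18 lower), against 65.4% of all tested genes, 33% higher and 32.4% lower. Knockout libraries lay all below wild type for 12 members and all above for 4 in untreated cells, against 28.5% and 29.9% of tested genes, and for 18 and 4 with H2O2, against 33% and 33.4%. The members called were 80.8% of the 26 untreated and 84.6% with H2O2, shares not tested against those of all genes. The median log2 difference of the 26 was -0.19 without and -0.32 with H2O2, and the medians over all tested genes were 0.00278 and 0. Among the 18 enzymes alone, 2 were higher and 12 lower without H2O2 (median -0.24), and 1 was higher and 14 lower with it (median -0.45).

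These comparisons share no library. The sign was the same in both for 25 of the 26 genes, Idi1 being the exception, and for 90.1% of all tested genes. Called lower in both were 15 members (57.7%), against 28.7% of tested genes, and called higher in both were 4 (15.4%), against 29.8%. In bulk RNA, fewer cells that express a gene and less RNA per cell cannot be told apart. Without replicate 4 of the untreated knockout, 23 members passed in untreated cells and the enzymes' median was -0.33, and without wild-type replicate 9 the values were 23 and -0.28. Without both they were 23 and -0.37. A test against a 1.2-fold change kept 11 of the 21 untreated calls and 14 of the 22 with H2O2. Over all tested genes it called 4818 untreated, against 8746 by the main test, and 4842 with H2O2, against 8558. The calls of Hmgcs1, Sqle, Insig2, Srebf1, Srebf2 and Scap ended under the 1.2-fold test in both comparisons. Those of Pmvk, Cyp51, Nsdhl and Abca1 ended in untreated cells, and those of Mvk and Insig1 with H2O2.

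**Figure D2:**
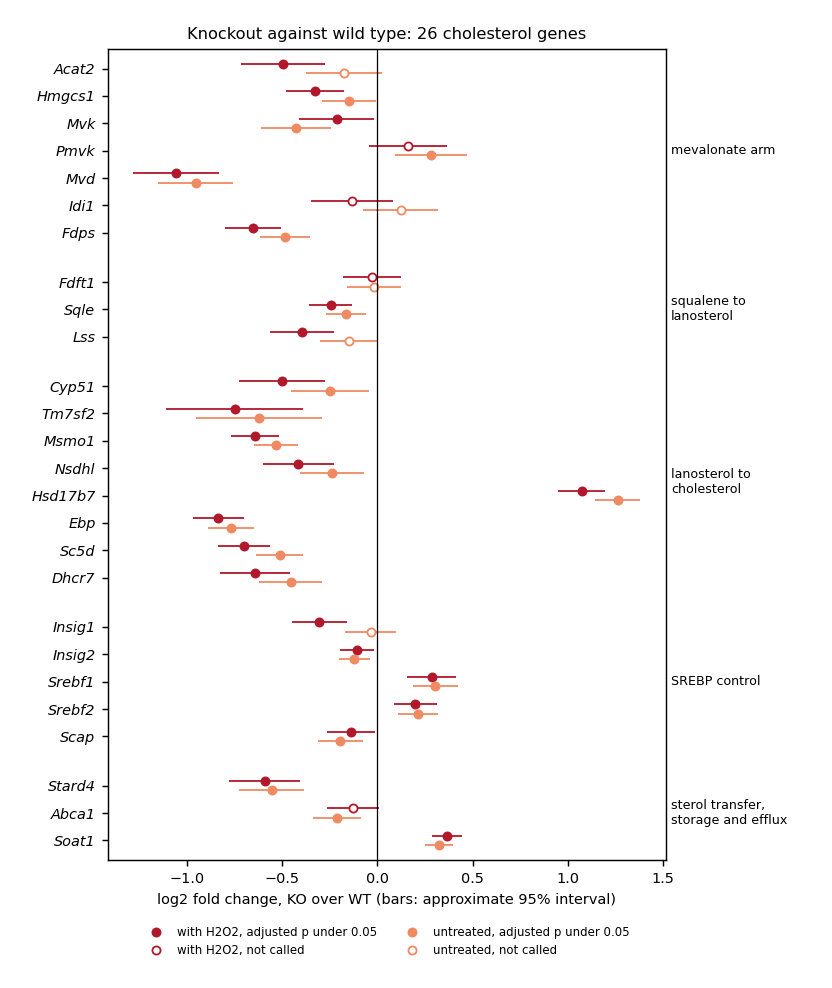
Log2 difference of knockout over wild-type cells for each of the 26 genes, with approximate 95% intervals, untreated and with H2O2, ordered by role. Most enzymes lie left of 0 in both comparisons and Hsd17b7 lies near 1 in both.

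In the mevalonate arm the data showed lower levels of Mvd, Fdps and Mvk in untreated knockout cells, a higher level of Pmvk, and no call for Acat2 and Idi1. Mvd, which decarboxylates mevalonate diphosphate (chr8:122433601-122443422, minus strand, mm10), had 10.8, 11.8, 13.2 and 15.6 CPM in the 4 untreated knockout libraries and 24.6, 23.2, 23.5 and 28.3 CPM in untreated wild type. With H2O2 it had 11.5, 10.4 and 11.9 CPM in knockout cells, against 21.6, 24.5, 22.6 and 25 CPM in wild type. Every knockout library was below every wild-type library, and the ratio of knockout to wild type was 0.516 without H2O2 (log2 -0.95, SE 0.0895, adjusted p = 2.67e-10) and 0.481 with it (log2 -1.06, SE 0.102, adjusted p = 5.11e-10). Fdps, farnesyl diphosphate synthase, had 103, 113, 115 and 133 CPM in untreated knockout cells, against 157, 171, 156 and 168 CPM in untreated wild type. With H2O2 the values were 101, 109 and 112 CPM in knockout cells and 166, 171, 159 and 178 CPM in wild type. The groups did not overlap in either condition (log2 -0.49, SE 0.06, adjusted p = 5.2e-07 untreated and log2 -0.65, SE 0.066, adjusted p = 3.33e-08 with H2O2). Fdps shares exon bases with the predicted gene Gm43738, which held 23 counts over all libraries.

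The other mevalonate genes differed less. Hmgcs1, HMG-CoA synthase, averaged 55.7 ± 5.54 CPM in untreated knockout cells, against 61.9 ± 3.37 CPM in untreated wild type. Its groups overlapped (log2 -0.15, SE 0.0636, adjusted p = 0.0425), and the call was lost without untreated knockout replicate 1, 2 or 3, knockout replicate 7 with H2O2, or untreated wild-type replicate 10 or 12 (adjusted p = 0.0536 to 0.188). With H2O2 Hmgcs1 averaged 53.1 ± 2.87 CPM in knockout and 66.6 ± 5.05 CPM in wild type (log2 -0.33, SE 0.0694, adjusted p = 0.000209). Mvk, mevalonate kinase, was lower in knockout cells without H2O2 (log2 -0.43, SE 0.0833, adjusted p = 5.64e-05) and with it (log2 -0.21, SE 0.0902, adjusted p = 0.0394), the second call being lost in DESeq2 (adjusted p = 0.0512) and without knockout replicate 5 or 8 or wild-type replicate 14 or 16 (adjusted p = 0.0529 to 0.167). Pmvk, the next kinase, was higher in untreated knockout cells at 18 ± 1.29 CPM, against 14.7 ± 1.64 CPM in wild type (log2 0.28, SE 0.0849, adjusted p = 0.00474). With H2O2 it was not called (log2 0.16, adjusted p = 0.128), except without wild-type replicate 15 (log2 0.24, adjusted p = 0.0264). Acat2, the cytosolic thiolase that opens the pathway, missed the threshold in untreated cells (log2 -0.18, adjusted p = 0.0943) and was lower in knockout cells with H2O2 (log2 -0.49, SE 0.0997, adjusted p = 0.000186). Idi1, the isomerase, was not called in either comparison, with log2 differences of 0.12 (95% interval -0.07 to 0.32) and -0.13 (-0.35 to 0.08), though fitting the 2 groups with H2O2 alone gave an adjusted p of 0.0458. Its untreated difference was 0.03 without knockout replicate 4 and -0.03 without replicates 4 and 9, where that of Hmgcs1 was -0.24.

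Between squalene and lanosterol, the differences were small in untreated cells, and with H2O2 that of Lss was larger. Fdft1, squalene synthase, averaged 49.7 ± 1.14 CPM in untreated knockout and 50.3 ± 6.18 CPM in untreated wild-type cells, a log2 difference of -0.02 with an interval of -0.16 to 0.12, and -0.09 without wild-type replicate 9. Fdft1 shares 774 exon bases with Ctsb on the opposite strand, which held 379182 counts against 10878 for Fdft1, and whether strand was used in counting is not given in the sources used here. Sqle, squalene epoxidase, was lower in knockout cells without H2O2 (log2 -0.16, SE 0.0468, adjusted p = 0.00286) and with it (log2 -0.25, SE 0.051, adjusted p = 0.000124). Lss, lanosterol synthase, missed the threshold in untreated cells (log2 -0.15, adjusted p = 0.0605) but was lower with H2O2, at 47 ± 3.7 CPM in knockout and 61.8 ± 2.94 CPM in wild-type cells (log2 -0.40, SE 0.0756, adjusted p = 8.74e-05). Without untreated knockout replicate 4, Acat2 and Lss were called lower in untreated knockout cells, at log2 -0.26 (adjusted p = 0.0117) and -0.22 (adjusted p = 0.00413). Without wild-type replicate 9 they were called at adjusted p = 0.0443 and 0.0203, and Lss passed also without knockout replicate 5 with H2O2 (adjusted p = 0.0482), in DESeq2, in limma on RPKM, with DESeq2's size factors, without a filter on low counts and with a minimum mean of 1 CPM (adjusted p = 0.0267 to 0.0475).

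The 8 enzymes from lanosterol to cholesterol all passed in both comparisons, 7 lower and Hsd17b7 higher in knockout cells, with a median log2 of -0.48 untreated and -0.64 with H2O2. Of all tested genes, 66.8% and 65.4% passed, and 58.5% passed in the same direction in both. Ebp, which shifts a double bond in the sterol ring (chrX:8185329-8193512, minus strand), had 34.4, 34.2, 33.4 and 36.8 CPM in untreated knockout cells, against 61.8, 58.2, 58.9 and 57.5 CPM in untreated wild type. With H2O2 it had 33.2, 35.9 and 29.4 CPM in knockout and 58.7, 61.9, 59.5 and 54.8 CPM in wild-type cells. The knockout and wild-type libraries did not overlap in either condition (log2 -0.77, SE 0.0553, adjusted p = 9.18e-13 and log2 -0.84, SE 0.0613, adjusted p = 1.65e-12). Hsd17b7, a ketoreductase of the demethylation steps (chr1:169949535-169969241, minus strand), had 63.6, 59.5, 59.1 and 62.8 CPM in untreated knockout cells, against 26.2, 23.5, 26.6 and 25.6 CPM in untreated wild type. With H2O2 the values were 58.4, 63.4 and 57.3 CPM in knockout and 28.3, 27.1, 28.1 and 30.2 CPM in wild type. It was thus higher in every knockout library, by 2.4-fold (log2 1.26, SE 0.0537, adjusted p = 7.74e-18) and 2.1-fold (log2 1.07, SE 0.0569, adjusted p = 1.41e-15).

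Msmo1 and Nsdhl work in the same demethylation steps as Hsd17b7 and went the other way. Msmo1 had 55.7, 62.4, 60.2 and 66.8 CPM in untreated knockout cells, against 81.2, 89.7, 92 and 92.2 CPM in untreated wild type, without overlap (log2 -0.53, SE 0.0521, adjusted p = 5.32e-10). Nsdhl was lower by less (log2 -0.24, SE 0.0755, adjusted p = 0.00694), and replicate 4 of the knockout lay within the wild-type range. Sc5d, a desaturase, had 40.1, 41.9, 40.6 and 48.1 CPM in untreated knockout and 58, 58.7, 64.6 and 62.3 CPM in untreated wild-type cells, again without overlap (log2 -0.51, SE 0.0559, adjusted p = 4.53e-09). Dhcr7, which reduces a double bond in the sterol ring, had 76.4, 82.7, 81.7 and 106 CPM in untreated knockout cells. Untreated wild type had 117, 121, 112 and 125 CPM. The highest knockout value was that of replicate 4, and it was still below the wild-type libraries (log2 -0.46, SE 0.0755, adjusted p = 6.37e-05). With H2O2 the differences of Msmo1 (-0.64), Nsdhl (-0.41), Sc5d (-0.70) and Dhcr7 (-0.64) on the log2 scale all passed the test. Cyp51, the lanosterol demethylase, was lower in knockout cells, with log2 -0.25 (adjusted p = 0.0254) untreated and -0.50 (adjusted p = 0.000367) with H2O2. Its untreated groups overlapped, and that call was lost without knockout replicate 1 or 3 or wild-type replicate 12 (adjusted p = 0.0644 to 0.075), while without replicates 4 and 9 the difference was -0.38. Tm7sf2 was lower in both (log2 -0.62, adjusted p = 0.000662, and -0.75, adjusted p = 0.000221), and it shares 532 exon bases on the same strand with Vps51, which held 7123 counts against 1143.

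**Figure D3:**
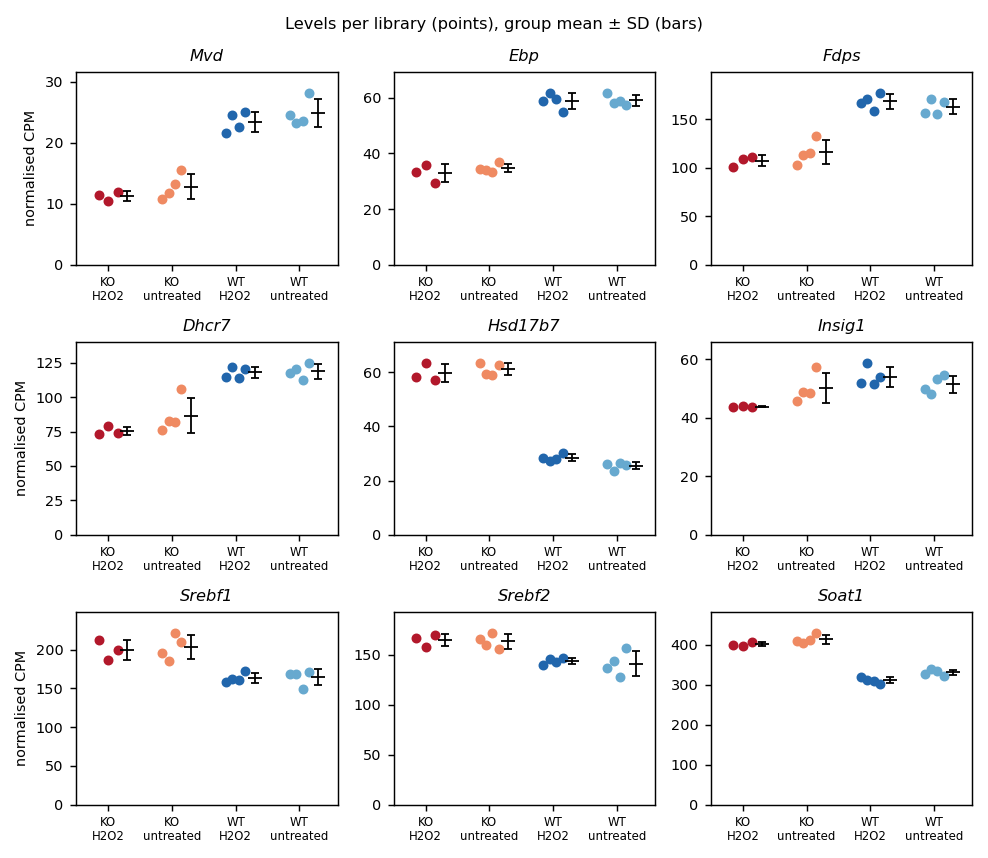
CPM in each of the 15 libraries for 9 of the genes, by group, with the mean ± SD beside them. Mvd and Ebp separate the genotypes with the knockout libraries lower, Hsd17b7 separates them with the knockout libraries higher, and Insig1 shows 1 untreated knockout library above the rest of its group.

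Of the SREBP control genes, the 2 that encode the transcription factors were higher in knockout cells and Insig2 and Scap were lower, all by less than the leading enzymes. Srebf1 had 196, 186, 222 and 209.7 CPM in untreated knockout cells, against 169, 169, 149 and 171 CPM in untreated wild type (log2 0.30, SE 0.0536, adjusted p = 3.02e-05). With H2O2 it had 213, 187 and 199 CPM in knockout and 159, 163, 161 and 173 CPM in wild-type cells (log2 0.29, SE 0.0579, adjusted p = 0.000162). The groups did not overlap in either condition. Srebf2 had 166, 159.7, 172 and 156 CPM in untreated knockout cells, against 137, 144, 128 and 157 CPM in untreated wild type, where the ranges met at 1 library (log2 0.21, SE 0.0476, adjusted p = 0.000307), and the difference with H2O2 was 0.20 (adjusted p = 0.00128). Against a 1.2-fold change none of these calls held (adjusted p = 0.193 and 0.311 for Srebf1 and 0.946 and 0.976 for Srebf2, untreated and with H2O2). Scap, the escort protein, differed by log2 -0.20 (adjusted p = 0.00209) and -0.14 (adjusted p = 0.0388), the second lost without knockout replicate 5, 7 or 8 or wild-type replicate 15 or 16 (adjusted p = 0.0623 to 0.116). Insig2, the second retention protein, differed by log2 -0.12 (adjusted p = 0.00558) and -0.11 (adjusted p = 0.0218), the second lost without knockout replicate 5 (adjusted p = 0.135) or wild-type replicate 16 (adjusted p = 0.0562), and without a filter on low counts (adjusted p = 0.0565).

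Insig1 had 45.7, 48.8, 48.6 and 57.6 CPM in untreated knockout cells and 49.8, 48.2, 53.3 and 54.6 CPM in untreated wild type. These groups overlapped and the gene was not called (log2 -0.04, adjusted p = 0.621, and -0.11, adjusted p = 0.0828, without knockout replicate 4). With H2O2 it had 43.7, 44.2 and 43.8 CPM in knockout cells, against 52, 59, 51.5 and 54 CPM in wild type, with no overlap (log2 -0.30, SE 0.0664, adjusted p = 0.000229).

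The 3 genes of sterol movement and storage did not move together. Stard4, a soluble sterol transfer protein and known SREBP target, had 15.8, 19, 15.9 and 18.3 CPM in untreated knockout cells, against 23, 23.4, 27.3 and 27.7 CPM in untreated wild type, without overlap (log2 -0.55, SE 0.0772, adjusted p = 3.63e-07), and differed by -0.59 (adjusted p = 6.22e-07) with H2O2. Soat1, which esterifies cholesterol for storage, was higher in knockout cells, at 409, 405, 411 and 430.4 CPM untreated, against 327, 338, 333 and 323 CPM in untreated wild type. With H2O2 Soat1 had 398, 397 and 406 CPM in knockout and 320.1, 311, 309.8 and 302 CPM in wild-type cells, and every knockout library was above every wild-type library (log2 0.32, SE 0.0331, adjusted p = 1.2e-09 and log2 0.37, SE 0.0356, adjusted p = 5.67e-10). Abca1, the efflux transporter, was lower in untreated knockout cells (log2 -0.21, SE 0.0568, adjusted p = 0.00231) and was not called with H2O2 (log2 -0.13, adjusted p = 0.0737). It was called there without untreated knockout replicate 2 or 4 or knockout replicate 8 with H2O2 (adjusted p = 0.0299 to 0.0398), without a filter on low counts (adjusted p = 0.0483) and with only the groups given H2O2 fitted (adjusted p = 0.0156).

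In several libraries most enzymes lay on the same side of their group mean. The summed level of the 18 enzymes was 782 ± 22.7 CPM in knockout cells with H2O2, 833 ± 69.9 CPM in untreated knockout cells, 1032 ± 44.1 CPM in wild type with H2O2 and 995 ± 44.7 CPM in untreated wild type (SD, n = 3, 4, 4 and 4). Untreated knockout replicate 4 held 933.9 CPM, the highest of its group, which began at 771.7 CPM. In replicate 4 all 18 enzymes were above their group mean, by a median log2 of 0.19, and 17 of them were highest in that library. Replicate 1 of the same group was lowest for 12 enzymes. Hsd17b7 was the 1 enzyme not highest in replicate 4. That library also differed from its group over all tested genes, as given above, so its shift was not particular to the pathway. Among the other groups, 17 enzymes were above the mean in untreated wild-type replicate 12, which was highest for 11. With H2O2, 15 were above it in wild-type replicate 14 and 15 below it in replicate 15.

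**Figure D4:**
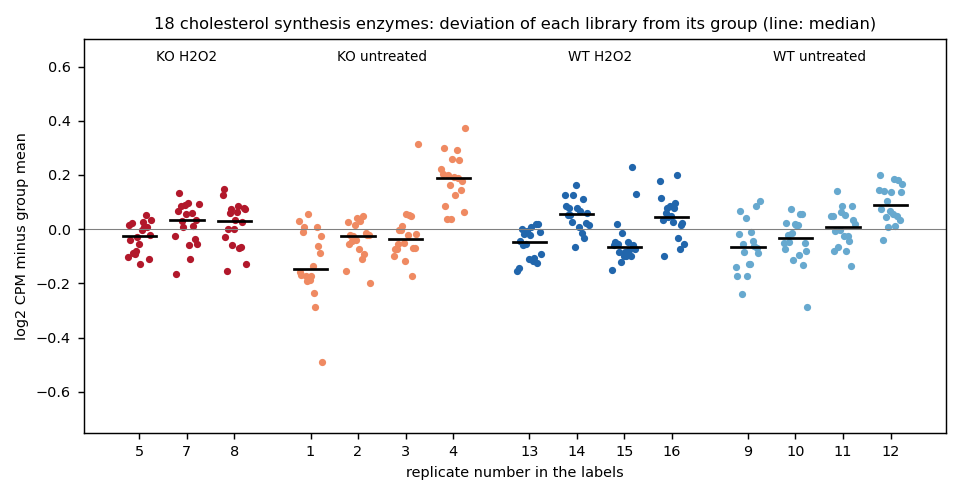
Log2 deviation of each of the 18 enzymes from its group mean in every library, as points with the median. Untreated knockout replicate 4 has all 18 points above 0.

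The second comparison asked whether 24 h of H2O2 moved the pathway. None of the 26 genes passed in either genotype. In knockout cells 0 of 26 were called (3 at an unadjusted p under 0.05), against 7 of 13085 tested genes, or 0.0535% (7.96% at the unadjusted p). In wild-type cells 0 of 26 were called (3 at an unadjusted p under 0.05), against 2 tested genes, or 0.0153% (6.47% at the unadjusted p). DESeq2 and limma on RPKM likewise called 0 members in both. The enzymes' median log2 difference of H2O2 over untreated was -0.11 in knockout cells, with 16 of 18 negative, and 0.05 in wild-type cells, with 13 positive and 5 negative. Without untreated knockout replicate 4 the knockout median was -0.04, and without knockout replicate 5 with H2O2 it was -0.07. The wild-type median was 0.08 without untreated replicate 12, 0.07 without replicate 15 with H2O2, and 0.03 without untreated replicate 9.

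Insig1 had the lowest unadjusted p of the 26 genes in knockout cells (0.00696). It averaged 43.9 ± 0.247 CPM with H2O2 and 50.2 ± 5.12 CPM untreated, a log2 difference of -0.20 with an interval of -0.34 to -0.05 and an adjusted p of 0.405. In wild-type cells it averaged 54.1 ± 3.39 CPM with H2O2 and 51.5 ± 2.99 CPM untreated (log2 0.07, adjusted p = 0.906). Sc5d and Dhcr7 in knockout cells differed by -0.18 (adjusted p = 0.461) and -0.20 (adjusted p = 0.586), and Hsd17b7 in wild-type cells by 0.16 (adjusted p = 0.646). None of these differences passed the test. Without untreated knockout replicate 4 the knockout differences were -0.12 for Insig1, -0.11 for Sc5d and -0.09 for Dhcr7.

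**Figure D5:**
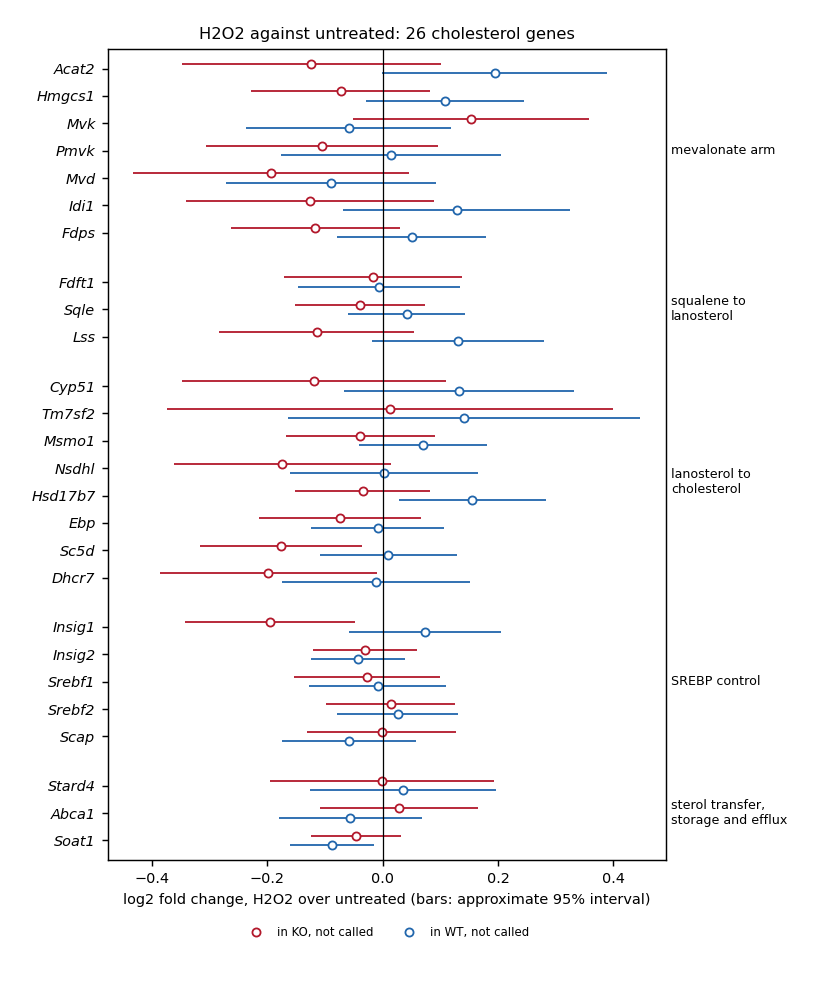
Log2 difference of H2O2 over untreated for each of the 26 genes in knockout and wild-type cells, with approximate 95% intervals. The estimates lie close to 0 beside the genotype differences, and no gene passed the test in either genotype.

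Whether H2O2 acted differently in the genotypes was tested as an interaction, the H2O2 difference in knockout minus that in wild-type cells. It called 0 of 26 members (5 at an unadjusted p under 0.05) and 0 of all tested genes, 0%, while 808 genes (6.18%) had an unadjusted p under 0.05 and the smallest adjusted p was 0.148. DESeq2 called 15 genes and no member. The estimates for 17 of 18 enzymes were negative, with a median of -0.17, which became -0.08 without untreated knockout replicate 4. Insig1 had an interaction of -0.27 (adjusted p = 0.67) and Acat2 of -0.32 (adjusted p = 0.797). Without replicates 4 and 9 they were -0.18 and -0.19. The larger genotype difference with H2O2 than without was therefore not shown by the test of that difference.

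Neighbouring parts of the pathway were read from 4 further lists and from Lbr, a lamina receptor with sterol reductase activity like Tm7sf2. Lbr was higher in untreated knockout cells, at 121 ± 4.7 CPM, against 88.2 ± 5.2 CPM in untreated wild type (log2 0.45, SE 0.0427, adjusted p = 3.05e-10).

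The share called in each of the 4 lists in untreated cells, 63.2% for uptake and traffic, 60% for SREBP processing, 72.7% for isoprenoid genes and 69.2% for fatty acid genes, was near the 66.8% of all tested genes. With H2O2 the shares were 68.4%, 40%, 72.7% and 76.9% in the same order, against 65.4% of all tested genes. Of 19 tested genes of sterol uptake and traffic, 3 were higher, 9 lower and 7 not called in untreated knockout cells, and 3 were higher and 10 lower with H2O2. Vldlr, a lipoprotein receptor, had 78.1 ± 5.53 CPM in untreated knockout and 259 ± 6.33 CPM in untreated wild-type cells (log2 -1.73, SE 0.0488, adjusted p = 7.65e-22). Npc1, which exports cholesterol from lysosomes, had 107 ± 7.09 CPM in untreated knockout and 193 ± 5.73 CPM in untreated wild-type cells (log2 -0.85, SE 0.0412, adjusted p = 1.45e-16). Of 10 genes of SREBP processing and its regulators, 4 were higher, led by Trib1 (log2 0.40), and 2 lower, Erlin2 (-0.19) and Rnf139 (-0.16). Trib1 encodes a pseudokinase and Erlin2 a protein of the endoplasmic reticulum membrane. Of 11 isoprenoid genes, 5 were higher, led by Pdss1 (log2 0.96), and 3 lower, led by Pdss2 (-0.43). Pdss1 and Pdss2 encode the subunits that build the side chain of coenzyme Q. Of 13 fatty acid genes known as SREBP-1 targets, 4 were higher, 5 lower and 4 not called, with a median log2 of 0.02, and with H2O2 3 were higher and 7 lower (median -0.14). In that list Fads1, a desaturase, was higher (log2 0.91) and Fads2, another desaturase, was lower (-0.96). None of these 4 lists had all its tested genes called in 1 direction.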

How the data were processed

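Poly(A) RNA from 15 libraries of 6DT1 cells was sequenced as paired ends after TruSeq Stranded mRNA preparation, per the labels' protocols. The submitters' processing notes name cutadapt, STAR and RSEM and the build mm10, with no versions. The authors deposited expected counts per gene symbol, all of them whole numbers as deposited, and a table of RPKM, which equals the count over library total and a gene constant. Whether strand was used in counting is not given in the sources used here.

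Counts were fitted with edgeR 4.0.16 in R 4.3.3 (TMM, filterByExpr, robust quasi-likelihood fit over the 4 groups, 11 residual degrees of freedom) and p-values were adjusted by Benjamini-Hochberg over all 13085 tested genes, which held 99.9% of counts. The SE is the log2 difference over the square root of F. Intervals are approximate, at 95% with the 11 residual degrees of freedom, and can differ from the test's p-value near the threshold. CPM values use TMM library sizes. Alternatives were DESeq2 1.42.0, limma 3.58.1 on log2(RPKM + 0.1), other filters and scalings, a 1.2-fold test and leaving out each library. The scripts were tested on simulated data. Genes named outside the 26 came, per list, from the top 2 and the bottom 2 called genes by log2 difference, at 5 CPM or more in the higher group and without overlap between groups. Some items are not reported here. The members, lists and rules were chosen with earlier results of these data known. Sequences came from RefSeq tables of GRCm38.p6 and loci from the GENCODE M21 annotation.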

Additional observations from a re-analysis of the deposited data

Results flagged for a closer look

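Within groups of 4, the highest or lowest library lay far from the other 3 for 5 of 81 gene and group pairs, and chance flags about 1 in 20. Sqle in untreated knockout replicate 4 was 89.3 CPM, against 84.2 to 84.5 CPM in the other 3 libraries. Scap in untreated knockout replicate 3 was 72.2 CPM, against 63.2 to 63.9 CPM. Insig2 in untreated knockout replicate 2 was 92.9 CPM, against 88.2 to 88.5 CPM. Sc5d in wild-type replicate 15 with H2O2 was 58.9 CPM, against 62 to 62.3 CPM. Srebf1 in untreated wild-type replicate 11 was 149 CPM, against 169 to 171 CPM. In edgeR's test of the interaction no member's H2O2 response was called different between the genotypes.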

How the results depend on the processing

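No paired analysis was possible because each library has a replicate number of its own. No called difference of a member changed sign under the alternatives tried. Of the members, 21 were called in untreated cells and 11 by the 1.2-fold test, 19 to 23 with 1 library left out; with H2O2 22 were called, 14 by the 1.2-fold test and 19 to 23 with 1 library left out. Over all genes the knockout difference called 8746 untreated, 4818 by the 1.2-fold test and 8399 to 8773 with 1 library left out, and 8558, 4842 and 7965 to 8639 with H2O2. The H2O2 difference in wild-type cells called 2 genes, 12 in DESeq2, 12 without a filter, 0 with only 2 groups fitted, by the 1.2-fold test, in limma on RPKM or without replicates 4 and 9 together (the last chosen after seeing the data), and 0 to 13 with 1 library left out. In knockout cells it called 7 genes, 61 in DESeq2, 27 without a filter, 0 by the 1.2-fold test, 3 in limma on RPKM and 3 without replicates 4 and 9, and 0 to 21 with 1 left out. The interaction called 0 genes, 15 in DESeq2, 5 without a filter and 0 to 3 with 1 left out. Members called for H2O2 or the interaction were 0 under every alternative tried. The cause of these changes was not tested.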
